A study of Mus musculus with 9 samples.

Results

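Gdf9 and Bmp15 are growth factors of the transforming growth factor beta (TGF-beta) superfamily that mammalian oocytes secrete. They are described here from every array probe whose platform symbol is Gdf9 or Bmp15, which gave 2 of 45281 probes, 1 for each gene, and 2 of the 19057 genes named on the array. The arrays were single-colour Illumina arrays of C57BL/6 mouse cells in 3 groups of 3: putative female germ cells (PFGC) collected by magnetic sorting, oocytes collected by magnetic sorting, and cultured spermatogonial stem cells (SSC). The series concerns the differentiation of SSC into the putative female cells. No genetic change or drug treatment is named in the labels, and they do not give the antibody of the sort, the age of the animals or the tissue of origin. Because PFGC and oocytes were sorted and SSC were cultured, handling and cell type cannot be told apart in any comparison with SSC. Replicates are numbered, but their origin in distinct cultures or mice is not stated, and the p-values therefore reflect only the variation among these arrays, part of which may be technical.

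GDF9 and BMP15 proteins are made as precursors, cut by proprotein convertases and secreted from the oocyte, where they act alone or as a pair on the granulosa cells that surround it. Both signal through the type II receptor BMPR2. GDF9 acts with the type I receptor TGFBR1 (ALK5) and SMAD2 and SMAD3, and BMP15 with BMPR1B (ALK6) and SMAD1, SMAD5 and SMAD9. In mice, loss of Gdf9 stops follicles at an early stage, and the pair drives cumulus expansion, the loosening of the granulosa-derived cells around the oocyte before ovulation. Spermatogonial stem cells are the self-renewing male germ cells of the testis.

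The Gdf9 probe (ILMN_1225090, Entrez gene 14566, NM_008110) belongs to a gene on chromosome 11, at chr11:53430774-53437904 in GRCm38.p6 and 7131 bases long. The Bmp15 probe (ILMN_2735937, Entrez gene 12155, NM_009757) belongs to an X-linked gene at chrX:6314054-6320724 in the same build, 6671 bases long. Positions within the genes were not analysed for either probe. The 250 bases before the annotated start of Bmp15 are printed because regulators of both genes were measured on the same arrays (below). They lie at chrX:6320725-6320974 on the minus strand of GRCm38.p6 and were taken from RefSeq, with motif matches in capitals.

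Bmp15 promoter: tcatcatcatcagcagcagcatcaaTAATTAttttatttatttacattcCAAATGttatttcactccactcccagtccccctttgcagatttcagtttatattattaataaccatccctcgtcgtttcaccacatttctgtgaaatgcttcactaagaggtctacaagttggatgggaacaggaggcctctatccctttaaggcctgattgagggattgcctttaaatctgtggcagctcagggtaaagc

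The search covered, on both strands, 3 elements known to be bound by NOBOX, a homeobox protein of oocytes, which read TAATTG in the first form, TAATTA in the second and TAGTTG in the last. It also covered the E-box CANNTG, the element of basic helix-loop-helix proteins such as FIGLA. The window held 1 TAATTA, beginning at position -225 from the gene start, and 1 E-box, beginning at -201. These matches did not overlap, and the other NOBOX elements had 0 matches in this window. Among 32851 RefSeq promoter windows of 250 bases, 4.84% held TAATTA, 16.1% held at least 1 of the 3 NOBOX elements and 66.2% held an E-box, so a match is a description of these letters and not evidence of binding.

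Gdf9 gave a signal of 2157, 1571 and 1468 on PFGC replicates 1 to 3, against 3688, 3877 and 3746 on the oocyte arrays and 159, 133 and 125 on the SSC arrays. All PFGC arrays lay below all oocyte arrays, and all SSC arrays lay below both. The share of all genes whose arrays separate in this way was not counted, so such separation is a description here and below. The signal is the brightness of the probe in arbitrary units, and the median probe of an array had a signal between 104 and 122. Gdf9 was therefore 14.1 to 20.2 times the array median in PFGC, 30.1 to 32.2 times in oocytes and 1.13 to 1.48 times in SSC. It passed the detection threshold, a detection p under 0.01 against the array's negative controls, on all 9 arrays. The SSC values were near the floor, with a detection p of 0.00748 on SSC replicate 3 and 0 on the other two.

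Bmp15 gave a signal of 1646, 1657 and 814 in PFGC, against 2877, 2536 and 1975 in oocytes and 102, 98.4 and 98.9 in SSC. PFGC replicate 3 was the low array, at 7.84 times the array median against 15.4 and 15.2 on the other PFGC arrays. PFGC and oocyte arrays did not overlap. In SSC the Bmp15 probe was not detected on any array, with detection p of 0.316, 0.494 and 0.616, and its signal was 0.895 to 0.945 times the array median.

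**Figure D1:**
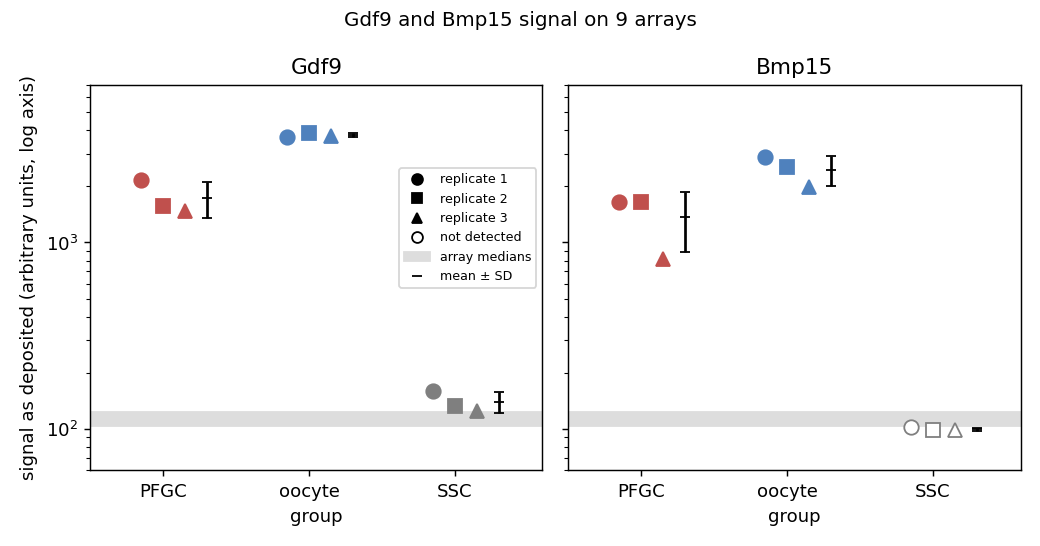
Signal as deposited of the Gdf9 and Bmp15 probes on a log axis for PFGC, oocyte and SSC arrays, with 1 symbol per replicate, open symbols where the probe was not detected, black bars for the mean ± SD of 3 arrays and a grey band for the range of array medians. Gdf9 lies between 1468 and 2157 in PFGC, 3688 and 3877 in oocytes and 125 and 159 in SSC, and Bmp15 lies below the grey band in SSC.

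The spread between replicates is given on the signal scale first, where values near the floor include the array background. The coefficient of variation (CV) of the Gdf9 signal was 21.5% in PFGC, 2.57% in oocytes and 12.8% in SSC. For Bmp15 it was 35.2% in PFGC and 18.5% in oocytes. The brightest PFGC array had 2.04 times the Bmp15 signal of the dimmest and 1.47 times the Gdf9 signal of the dimmest. Replicate 3 held the lowest Bmp15 signal in both PFGC and oocytes. Gdf9 did not share this order in oocytes, where replicate 1 was lowest.

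For the tests, signals were background-corrected, quantile normalized and taken to log2, and all values below called log2 levels are on that scale. Gdf9 averaged 10.81 ± 0.31 in PFGC, 11.68 ± 0.14 in oocytes and 5.78 ± 0.45 in SSC (log2 level, SD, n = 3 each), so that on this scale the spread was widest in SSC and not in PFGC. Bmp15 averaged 10.40 ± 0.44 in PFGC, 11.04 ± 0.16 in oocytes and 4.47 ± 0.07 in SSC, the SSC value being that of an undetected probe. For both genes the order of the levels was oocytes, then PFGC, then SSC. A level also depends on the probe, so the levels of the 2 genes were not set against each other.

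Both growth factor transcripts were far higher in PFGC than in SSC. Fold sizes over SSC depend on the background correction, so the fold without it is given too for Gdf9 and Bmp15 and for some of the genes below. Gdf9 was 32.7-fold higher (95% interval 23.0 to 46.4, and 13.3-fold without background correction), a log2 fold change of 5.03 with a standard error (SE) of 0.23 and an adjusted p of 7.00e-08 in limma with Benjamini-Hochberg adjustment over all kept probes. Bmp15 was at least 34.9-fold higher on the background-corrected scale, with an adjusted p of 7.79e-09 in the same fit, and 14.1-fold higher without background correction. The bound sets the PFGC mean against the lowest signal among detected probes on each SSC array, since SSC held no measured Bmp15 level, and the fitted log2 fold change of 5.93 (SE 0.20) is not a bound. The bounds given as "at least" are all on the background-corrected scale, and without the correction 37 of the 38 comparisons of named genes with SSC that have a bound gave a fold under it. In this comparison 48.1% of the 19934 kept probes were called in either direction at an adjusted p under 0.05, and 23.7% of 11077 genes were called higher and 26.8% lower, so a call alone is common. Of 8927 genes detected on every PFGC and SSC array, Gdf9 had the 8th largest increase. Bmp15 has no rank because its SSC side was not measured.

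Oocytes were also far above SSC for both genes. Gdf9 was 59.6-fold higher (95% interval 42.0 to 84.7, and 23.7-fold without background correction), with a log2 fold change of 5.90, an SE of 0.23 and an adjusted p of 1.19e-08 in limma. Bmp15 was at least 54.7-fold higher on the background-corrected scale, with a limma adjusted p of 2.74e-09, and 21.5-fold higher without background correction. Background calls were 57.6% of kept probes in either direction, with 28.1% of genes higher and 32.4% lower. Among 8750 genes detected on every oocyte and SSC array, Gdf9 had the 6th largest increase. This comparison and PFGC against SSC use the same SSC arrays, so their values stand side by side and are not independent of each other.

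Both transcripts had lower values in PFGC than in oocytes, and the test called 1 of the 2. Gdf9 fell to 10.81 in PFGC, against 11.68 in oocytes, a difference of -0.87 (SE 0.23, 95% interval -1.37 to -0.36) or 1.83-fold lower, with an adjusted p of 0.042 in limma. Bmp15 differed by -0.65 (SE 0.20, 95% interval -1.09 to -0.21), 1.57-fold lower, with an adjusted p of 0.0689, which missed the threshold. These intervals are for 1 probe each and are not adjusted for the number of probes. With the replicate number as a block, Bmp15 passed, at an adjusted p of 0.0265. Here 9.17% of kept probes were called in either direction, with 6.8% of genes higher and 3.3% lower in PFGC. Of 9414 genes detected on every PFGC and oocyte array, Gdf9 had the 58th and Bmp15 the 243rd largest decrease. Both results moved with single arrays. The Gdf9 call ended in 5 of the 9 fits that leave out 1 array (without PFGC replicate 2, PFGC replicate 3 or oocyte replicate 1, 2 or 3), at adjusted p of 0.0975 to 0.153, and Bmp15 was called without PFGC replicate 1, at 0.0479. Without PFGC replicate 3, the array with the low Bmp15 signal, the Bmp15 difference was -0.40. In such bulk samples, a smaller share of cells that hold these transcripts and less of the transcripts per cell cannot be told apart.

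**Figure D2:**
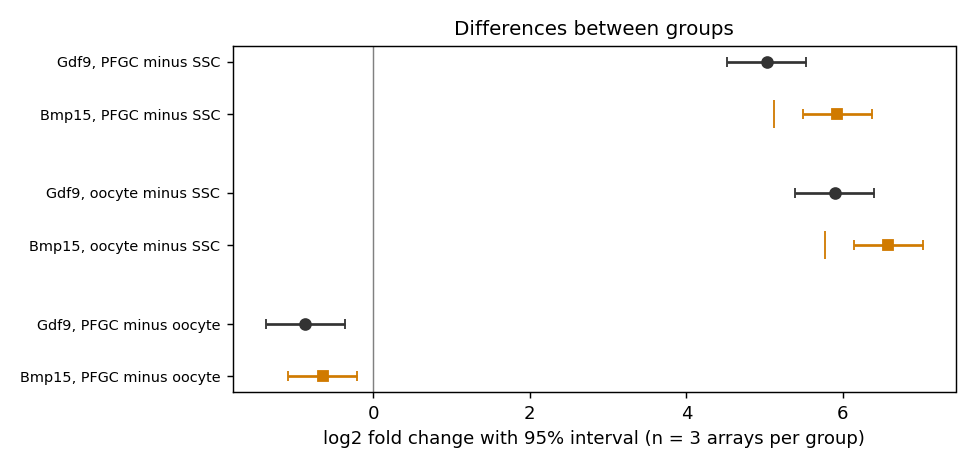
Log2 fold changes of Gdf9 (circles) and Bmp15 (squares) in the 3 comparisons, with 95% intervals from limma over 3 arrays per group. The vertical orange ticks mark the lower bounds of the Bmp15 increase over SSC (34.9-fold in PFGC and 54.7-fold in oocytes), where the fitted Bmp15 value is not a bound, and both genes lie below 0 for PFGC minus oocyte.

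Oocyte marker genes were set beside these values. All 8 oocyte markers (Zp1, Zp2, Zp3, Nlrp5, Ooep, Mos, Tcl1 and Padi6) were detected on all PFGC and oocyte arrays and were higher than in SSC in both groups. Of the 8, 5 (Zp2, Zp3, Nlrp5, Mos and Padi6) were not detected on any SSC array and were kept for testing only through PFGC and oocytes. The mean log2 level over the 8 genes was 9.92 to 9.95 on PFGC arrays, 10.17 to 10.28 on oocyte arrays and 5.31 to 5.42 on SSC arrays, and their summed signal was 18466 to 23886 in PFGC, 22714 to 26233 in oocytes and 1107 to 1157 in SSC. Between PFGC and oocytes, 2 of the 8 were called, both lower: Zp1 by -0.60 and Zp3 by -0.82, both zona pellucida proteins, and 6 of 21 alternatives ended the Zp1 call. The median difference of the 8 markers was -0.22, against -0.87 for Gdf9, -0.65 for Bmp15 and -0.01 over all genes. In the same comparison the medians were -0.52 for endothelial, -0.58 for leukocyte, -0.68 for steroidogenic, -0.21 for granulosa and -0.29 for fibroblast markers. They were 2.73 for Sertoli and 0.75 for SSC markers. Called lower were 3 of 6 kept endothelial, 2 of 5 leukocyte and 2 of 3 steroidogenic markers, against 3.3% of all genes. Lower values in PFGC were therefore not particular to Gdf9 and Bmp15.

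Markers of other cells also differed between the groups. Their counts stand beside the shares of all genes that the test called. Relative to SSC these shares were 23.7% up and 26.8% down for PFGC, and 28.1% up and 32.4% down for oocytes. Relative to oocytes they were 6.8% up and 3.3% down for PFGC. The fibroblast and leukocyte counts relative to SSC are therefore no result about those markers as a set. PFGC arrays carried more Sertoli cell markers (5 of 7 with a probe called higher, mean log2 level 8.01 to 8.47) than oocyte arrays (5.74 to 5.97). SSC had the highest mean (10.12 to 10.30). Against SSC, 6 of the 7 were lower in PFGC and 1, Rhox5, was higher (9.36, 9.16 and 9.57 in PFGC, 8.49, 8.55 and 9.02 in SSC). SSC markers were also higher in PFGC than in oocytes for 4 of 8 genes. Their mean was 6.35 to 6.62 in PFGC, 5.75 to 5.86 in oocytes and 8.07 to 8.32 in SSC. In oocytes the Sertoli markers Dhh and Gata1 and the SSC markers Gfra1 and Lhx1 were not detected on any array. Granulosa markers were present in both sorted groups, with 7 of 7 detected, a mean of 10.10 to 10.27 in PFGC, 10.29 to 10.40 in oocytes and 8.46 to 8.76 in SSC, and 0 of 7 called between PFGC and oocytes in limma (1 at an unadjusted p under 0.05, and 1 lower with the replicate block). In SSC the granulosa markers Foxl2, Nr5a2 and Esr2 were not detected. Members went both ways, with 5 of 7 higher and 2 lower than in SSC in both sorted groups. The lower ones were Fshr (mean log2 level 8.53 in PFGC, 8.45 in oocytes and 9.58 in SSC) and Amhr2 (12.15, 11.95 and 13.03). Endothelial markers averaged 7.78 to 7.95 in PFGC, 8.32 to 8.37 in oocytes and 6.10 to 6.28 in SSC. Steroidogenic markers averaged 7.27 to 7.47 in PFGC, 7.82 to 7.93 in oocytes and 5.24 to 5.42 in SSC. Fibroblast markers averaged 8.76 to 8.95 in PFGC, 8.96 to 9.04 in oocytes and 8.70 to 9.13 in SSC, but members went both ways, with 2 of 8 higher and 3 lower in PFGC than in SSC and 3 higher and 2 lower in oocytes. Lum, a matrix proteoglycan, was 1.69 higher in PFGC than in SSC on the log2 scale, and Thy1, a surface protein of fibroblasts and also of spermatogonia, fell by 2.24 and was not detected in oocytes. Leukocyte markers averaged 6.48 to 6.65 in PFGC, 6.95 to 7.08 in oocytes and 6.24 to 6.29 in SSC. Of 5 kept leukocyte markers, 1 was called higher than in SSC in PFGC and 2 in oocytes, and 0 lower. Their median log2 fold change was -0.16 in PFGC and 0.19 in oocytes. The marker called in PFGC was Cd14 (8.64, 8.16 and 8.42 in PFGC, 5.85, 6.16 and 5.77 in SSC). Ptprc, which marks nearly all leukocytes, was not detected on any array. The part of these other cells in the Gdf9 and Bmp15 differences was not tested.

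The balance of the 2 transcripts was followed as the log2 level of Bmp15 minus that of Gdf9 within each array, a quantity that has meaning only between groups. It was -0.41, 0.07 and -0.91 on PFGC replicates 1 to 3, against -0.37, -0.62 and -0.92 on the oocyte arrays. The 2 groups overlapped, and replicate 3 was the lowest in both. The means were -0.42 ± 0.49 in PFGC and -0.64 ± 0.27 in oocytes (SD, n = 3 each), a difference of 0.22 with a two-sided exact permutation p of 0.6, where the smallest p that 3 against 3 arrays can give is 0.1. The difference changed sign, to -0.03, without PFGC replicate 2. In SSC the values were -1.71, -1.29 and -0.96, with a mean of -1.32 ± 0.38 (SD, n = 3), but Bmp15 was undetected there. PFGC and oocytes lay 0.90 and 0.68 above SSC, each with an exact permutation p of 0.1, the smallest this design allows. Because the SSC side holds a background value of Bmp15, these 2 tests cannot show a change of balance. Among other processing settings the PFGC difference fell as low as 0.09. The oocyte difference turned to -0.14 without background correction.

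**Figure D3:**
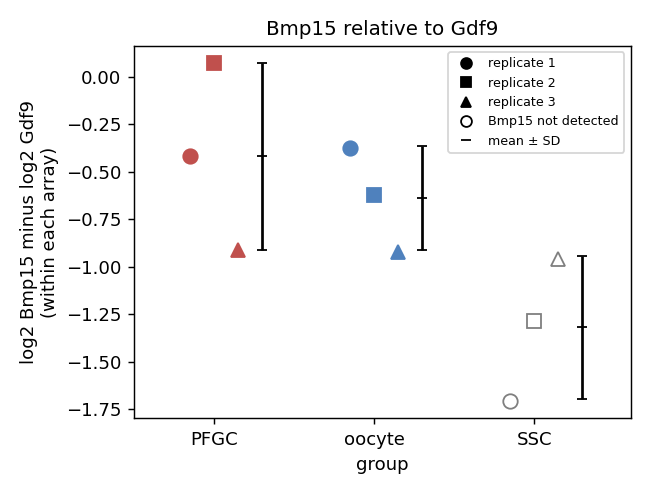
Log2 level of Bmp15 minus log2 level of Gdf9 within each of the 9 arrays, by group, with 1 symbol per replicate, open symbols where Bmp15 was not detected and bars for the mean ± SD of 3 arrays. PFGC (mean -0.42) and oocytes (mean -0.64) overlap.

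Genes known to act around the pair were taken from 9 lists with 92 genes in all, 85 of them with a probe and 62 kept for testing. Of these 62, 31 were called higher and 12 lower in PFGC than in SSC (50% and 19.4%, against 23.7% and 26.8% of all genes), with a median log2 fold change of 0.43 against -0.06 over all genes. In oocytes against the same SSC arrays, 34 were higher and 13 lower (54.8% and 21.0%, against 28.1% and 32.4%), with a median of 0.75 against -0.07. With genes undetected in 1 group at their lower bound, these medians were 0.43 in PFGC and 0.59 in oocytes. Between PFGC and oocytes 4 were higher and 8 lower (6.45% and 12.9%, against 6.8% and 3.3%), with a median of -0.17. A kept gene had to be detected on at least 3 arrays, so these are counts over the kept genes and not over all 92. Detection in 1 group was enough, so some genes entered only through the groups where they were high. Among probes detected on all 9 arrays, 17 genes were higher and 7 lower in PFGC than in SSC, out of fewer tested. In oocytes they were 20 and 7. The lists were chosen with earlier results of these data known, so the counts are a description. The shares of all genes given here also stand beside the counts by list below. The 8 lower calls between PFGC and oocytes were sensitive to single arrays, with 0 left without PFGC replicate 2, 2 without PFGC replicate 3, 1 without oocyte replicate 1 or 2 and 3 without oocyte replicate 3.

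Upstream of the pair, the transcriptional regulators fell into opposite directions. Of 7 kept regulators, 3 were higher and 3 lower than in SSC in both PFGC and oocytes. Nobox, a homeobox regulator of Gdf9 and Bmp15 in mouse oocytes, had log2 levels of 10.34, 9.63 and 9.22 in PFGC, 10.44, 10.48 and 10.10 in oocytes and 5.51, 5.48 and 4.80 in SSC. It was 22.1-fold higher in PFGC and 33.7-fold higher in oocytes than in SSC (limma adjusted p 8.14e-07 and 1.78e-07), and it was detected on only 2 SSC arrays. Without background correction these folds were 7.52 and 11.1. PFGC and oocyte arrays overlapped for Nobox, and their difference of -0.61 was not called (adjusted p 0.205, or 0.044 with the replicate block, which calls it).

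Figla, a helix-loop-helix regulator of zona pellucida genes, had log2 levels of 10.35, 10.23 and 9.70 in PFGC, 10.96, 10.95 and 10.61 in oocytes and no detected level in SSC. It was at least 28.3-fold higher in PFGC and at least 47.5-fold higher in oocytes than in SSC on the background-corrected scale, against 11.4-fold and 18.6-fold without the correction. PFGC were 0.75 lower than oocytes on the log2 scale (limma adjusted p 0.0303), a call that ended without PFGC replicate 2 or 3 or oocyte replicate 1 or 2. As with Bmp15, replicate 3 was the lowest in both groups. Lhx8, a LIM homeobox gene needed in early oocytes, was 3.29-fold higher in PFGC and 3.59-fold higher in oocytes than in SSC.

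The regulators that fell are shared by early germ cells of both sexes. Sohlh1, a helix-loop-helix protein of spermatogonia and primordial oocytes, fell by 1.33 in PFGC and by 2.39 in oocytes on the log2 scale relative to SSC, and was 1.07 higher in PFGC than in oocytes (limma adjusted p 0.00338). Taf4b, a subunit of a general transcription factor in germ cells, was 5.47-fold lower in PFGC than in SSC. In oocytes Taf4b was not detected and lay at least 10.6-fold below SSC and at least 1.95-fold below PFGC. Sohlh2, the partner of Sohlh1, was detected only in SSC, at least 1.28-fold above PFGC and at least 1.32-fold above oocytes. Nr6a1, an orphan nuclear receptor that can repress Gdf9 and Bmp15 in mouse, was kept and not called in any comparison, and Tbpl2, the oocyte form of the TATA-binding protein, did not pass the filter.

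Among the convertases, which cut the precursors, 1 of 3 kept genes was called in each comparison with SSC, and it was higher. Of all genes, 23.7% were called higher in PFGC and 28.1% in oocytes, so this count is no result about convertases as a set. Pcsk6 (PACE4) had log2 levels of 11.37, 11.48 and 11.22 in PFGC, 11.32, 11.07 and 11.08 in oocytes and 9.28, 9.28 and 9.55 in SSC. It was 3.96-fold higher in PFGC and 3.44-fold higher in oocytes than in SSC (limma adjusted p 1.32e-06 and 1.68e-06). Its second kept probe gave smaller log2 fold changes of 0.49 and 0.86. Furin, the ubiquitous convertase, was bright on all arrays, and its oocyte difference from SSC of 0.23 was not called (adjusted p 0.159). Pcsk7 was kept and not called in either comparison with SSC, and Pcsk5 did not pass the filter.

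Receptors of the superfamily changed in both directions. By their brightest probes Bmpr2, Bmpr1b and Tgfbr1 were higher than in SSC, but the probes of Tgfbr1 disagreed (below). Of 12 receptors with a probe, 9 were kept, and 5 were higher and 3 lower than in SSC in both PFGC and oocytes. Bmpr2, the shared type II receptor, had log2 levels of 11.04, 10.78 and 10.92 in PFGC, 11.51, 11.33 and 11.36 in oocytes and 10.13, 10.03 and 10.27 in SSC. It was 1.70-fold higher in PFGC and 2.38-fold higher in oocytes than in SSC (limma adjusted p 0.00055 and 1.22e-05), and no groups overlapped. Its 3 kept probes gave log2 fold changes of 0.23 to 0.77 in PFGC and 0.38 to 1.25 in oocytes.

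Bmpr1b, the type I receptor of BMP15, had log2 levels of 8.77, 8.73 and 8.46 in PFGC and 9.21, 9.25 and 9.15 in oocytes and was not detected in SSC. It was at least 10.4-fold higher in PFGC and at least 15.2-fold higher in oocytes than in SSC, with limma adjusted p of 5.34e-09 and 1.76e-09. Bmpr1a, a related type I receptor, was not called, with a difference of -0.16 in PFGC relative to SSC (adjusted p 0.582), and its other kept probe gave -0.59 in PFGC and -0.43 in oocytes. Tgfbr1, the type I receptor of GDF9, had log2 levels of 12.11, 11.85 and 11.98 in PFGC, 12.54, 12.51 and 12.49 in oocytes and 11.17, 10.86 and 10.83 in SSC, 2.04-fold higher in PFGC and 2.95-fold higher in oocytes than in SSC. The other kept Tgfbr1 probe gave -0.03 and 0.25 on the log2 scale, so the probes of this gene disagreed.

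Tgfbr2, the type II receptor of the TGF-betas, was 2.06-fold higher in PFGC and 2.43-fold higher in oocytes than in SSC. Acvr1 (ALK2), a type I receptor for BMPs, was 1.42-fold higher in PFGC and 1.80-fold higher in oocytes, and its PFGC call ended in 3 of 21 alternatives. Receptors that fell were Acvr1b (ALK4) and Acvr2b, activin receptors, and Amhr2, the receptor of anti-Mullerian hormone. Acvr2b was 1.99-fold lower in PFGC and 1.90-fold lower in oocytes, and Amhr2 was 1.84-fold lower in PFGC and 2.12-fold lower in oocytes. Acvr1b was 1.80-fold lower in PFGC and 1.55-fold lower in oocytes, and its oocyte call ended in 3 of 21 alternatives. Between PFGC and oocytes, the called receptors were Bmpr2 (-0.48), Bmpr1b (-0.55) and Tgfbr1 (-0.53), all lower in PFGC, with limma adjusted p of 0.0393, 0.0249 and 0.0341, and alternatives ended these calls in 6 of 21, 5 of 20 and 5 of 21 fits. All of those fits left out 1 array: PFGC replicate 2 or 3 or any oocyte replicate for each of the receptors, and also SSC replicate 1 for Bmpr2.

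SMAD proteins carry the receptor signal to the nucleus. Of 7 SMAD genes with a probe, 5 were kept, and 2 of them were higher than in SSC in both PFGC and oocytes. Smad3, an effector of GDF9, was 2.25-fold higher in PFGC and 2.71-fold higher in oocytes (limma adjusted p 2.33e-05 and 3.30e-06). Smad5, an effector of BMP15, was 1.53-fold higher in PFGC and 1.70-fold higher in oocytes, but its other kept probe gave -0.20 and -0.04 on the log2 scale and its PFGC call ended without normalization. Smad2 differed from SSC by -0.32 in PFGC and -0.18 in oocytes and Smad1 by -0.22 in PFGC, none of them called. The other kept Smad1 probe went the other way, at 0.48 in PFGC and 0.71 in oocytes. Smad7, an inhibitory SMAD, and Smad9 did not pass the filter.

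Extracellular antagonists bind such ligands before they reach a receptor. Of 7 kept, 3 were higher and 1 was lower than in SSC in both PFGC and oocytes. Fst (follistatin), an activin antagonist made by granulosa cells, had log2 levels of 8.61, 8.06 and 8.25 in PFGC and 8.48, 8.62 and 8.67 in oocytes and was not detected in SSC, at least 8.19-fold higher in PFGC and at least 10-fold higher in oocytes. Fstl3, its relative, went the other way and was 3.66-fold lower in PFGC and 6.01-fold lower in oocytes (detected on 2 of 3 arrays) than in SSC. Without background correction Fstl3 was 2.18-fold and 2.65-fold lower. Bmper, a BMP-binding protein, was 3.53-fold higher in PFGC and 6.87-fold higher in oocytes than in SSC (2.31-fold and 4.05-fold without background correction). Bmper was 0.96 lower in PFGC than in oocytes on the log2 scale (limma adjusted p 0.0141), a call that ended without PFGC replicate 2. With the replicate block, 2 antagonists were lower in PFGC than in SSC.

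Grem1 (gremlin), a BMP antagonist that GDF9 is known to induce in granulosa cells, was the antagonist called higher in PFGC than in oocytes. Its log2 levels were 6.90, 6.22 and 6.34 in PFGC and 5.18, 5.72 and 5.84 in oocytes, and it was not detected in SSC. The difference between PFGC and oocytes was 0.91 (SE 0.21, limma adjusted p 0.0285), opposite in sign to that of Gdf9 and Bmp15, and 7 of 20 alternatives ended the call. Grem1 was at least 2.32-fold higher in PFGC and at least 1.24-fold higher in oocytes than in SSC.

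**Figure D4:**
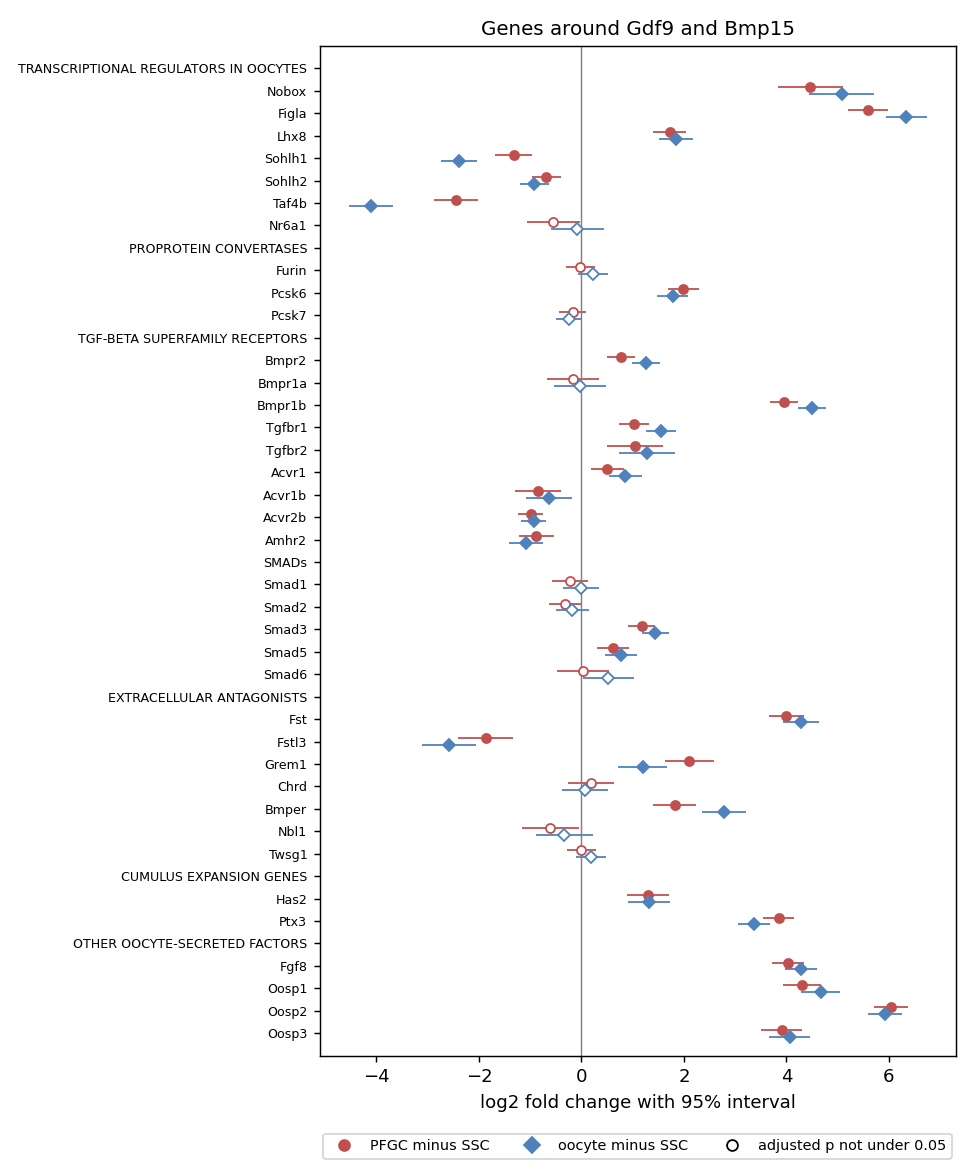
Log2 fold changes with 95% intervals of kept genes around Gdf9 and Bmp15, by role, for PFGC minus SSC (circles) and oocyte minus SSC (diamonds), which share the SSC arrays. Filled symbols passed an adjusted p under 0.05. Nobox, Figla and Bmpr1b lie well above 0 in both comparisons, and Sohlh1, Taf4b and Fstl3 lie below it, while values of genes not detected in SSC are fitted values and not bounds.

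Of 3 genes with a probe that the pair turns on during cumulus expansion, 2 were kept, Ptx3 and Has2, and both were higher than in SSC. Neither was detected in SSC, so both passed the filter only through PFGC and oocytes, and their direction is a description. Ptx3 (pentraxin 3), a matrix protein of the expanded cumulus, had log2 levels of 8.38, 8.20 and 8.31 in PFGC and 7.82, 7.63 and 7.99 in oocytes. It was not detected in SSC and was at least 8.14-fold higher in PFGC and at least 5.83-fold higher in oocytes. Has2, which makes the hyaluronan of the cumulus matrix, was at least 1.49-fold higher in PFGC and at least 1.51-fold higher in oocytes. Ptgs2, the cyclooxygenase of the same response, was not detected on any of the 9 arrays.

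Of 13 other granulosa and cumulus genes known to respond to oocytes, 6 were higher and 2 lower in PFGC than in SSC, and 7 were higher and 3 lower in oocytes. Slc38a3, an amino acid transporter, was not detected in SSC and was at least 2.91-fold higher in PFGC and at least 4.10-fold higher in oocytes. The glycolytic genes Pfkp and Ldha were 3.34-fold and 3.09-fold higher in PFGC and 5.76-fold and 3.63-fold higher in oocytes. Kitl, the ligand by which granulosa cells act on the oocyte, was higher in both groups by fitted folds of 1.94 in PFGC and 2.37 in oocytes, with detection on only 1 of 3 SSC arrays, so these sizes rest on SSC values mostly at background. Ebp, of cholesterol synthesis, was 1.58-fold lower in PFGC and 1.80-fold lower in oocytes. Between PFGC and oocytes, Pfkp was lower by -0.78 (7 of 21 alternatives ended this call) and Mvk, the mevalonate kinase, was at least 1.79-fold higher in PFGC.

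Other ligands of the superfamily were mixed. Of 28 with a probe, 14 were kept, and 6 were higher and 4 lower in PFGC than in SSC, against 8 higher and 4 lower in oocytes. Bmp3, an atypical BMP that opposes other BMPs, had log2 levels of 8.69, 8.39 and 8.32 in PFGC and 9.22, 9.21 and 9.06 in oocytes and no detection in SSC. It was at least 9.16-fold higher in PFGC and at least 14.8-fold higher in oocytes, and 0.69 lower in PFGC than in oocytes on the log2 scale (limma adjusted p 0.0114, a call that 3 of 20 alternatives ended). Inhba, the activin and inhibin beta A subunit, was 3.21-fold higher in PFGC and 5.68-fold higher in oocytes than in SSC, and 1.77-fold lower in PFGC than in oocytes, a call that 5 of 21 alternatives ended. Inha, the inhibin alpha subunit, was 2.48-fold higher in PFGC and 2.76-fold higher in oocytes, and Gdf10 was 2.55-fold and 3.10-fold higher.

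The ligands that fell in both groups were Bmp7, Gdf1, Lefty1 and Amh. Bmp7 was 2.09-fold lower in PFGC and 2.21-fold lower in oocytes than in SSC, and Gdf1 was 1.97-fold lower in PFGC and 1.98-fold lower in oocytes. Lefty1, an inhibitor of Nodal signalling, was lower by fitted folds of 1.88 in PFGC and 2.02 in oocytes, but it was detected on only 2 of 3 PFGC arrays and 1 of 3 oocyte arrays. Amh (anti-Mullerian hormone), made by Sertoli and granulosa cells, was 2.01-fold lower in PFGC (detected on 2 of 3 arrays) and, undetected in oocytes, at least 2.10-fold lower there.

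Of other factors that oocytes secrete, 4 of 4 were higher than in SSC in both groups. Fgf8, Oosp2 and Oosp3 were not detected in SSC and passed the filter only through PFGC and oocytes, so this count is a description. Between PFGC and oocytes 0 of 4 were called in limma, with 0 at an unadjusted p under 0.05 and 1 called lower with the replicate block. Fgf8, which acts with BMP15 on cumulus cells in mouse, was at least 11.4-fold higher in PFGC and at least 13.6-fold higher in oocytes by its brighter probe. The other kept Fgf8 probe gave log2 fold changes of 1.13 in PFGC and 1.44 in oocytes, well under those bounds. Oosp1 was 19.8-fold higher in PFGC and 25.3-fold higher in oocytes, against 10.4-fold and 13.2-fold without background correction. Oosp2 and Oosp3 were not detected in SSC and were at least 38.1-fold and 9.03-fold higher in PFGC and at least 35.2-fold and 10.0-fold higher in oocytes. A second Oosp3 probe gave log2 fold changes of 2.88 in PFGC and 3.14 in oocytes.

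The genes with profiles most like each member were found by the root mean square (RMS) of the differences between log2 profiles over the 9 arrays, each centred on its own mean, among 11076 genes. The profiles share the arrays and the large step from SSC, so likeness is a description. Bmp15 was undetected in SSC, so its SSC values are background, and its distances and ranks rest partly on them. How much of the distance between Gdf9 and Bmp15 comes from those values was not tested. Nearest to Gdf9 were Chac1 (RMS 0.273), Apoa1 (0.293), Apoa4 (0.320), Accsl (0.329) and Car14 (0.332). Nearest to Bmp15 were Plau (0.164), Figla (0.169), AA792892 (0.230), Car14 (0.240) and Ifit3 (0.244). Gdf9 and Bmp15 were not among each other's nearest 5: Bmp15 was the 33rd nearest to Gdf9 and Gdf9 the 27th nearest to Bmp15, at an RMS of 0.499.

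**Figure D5:**
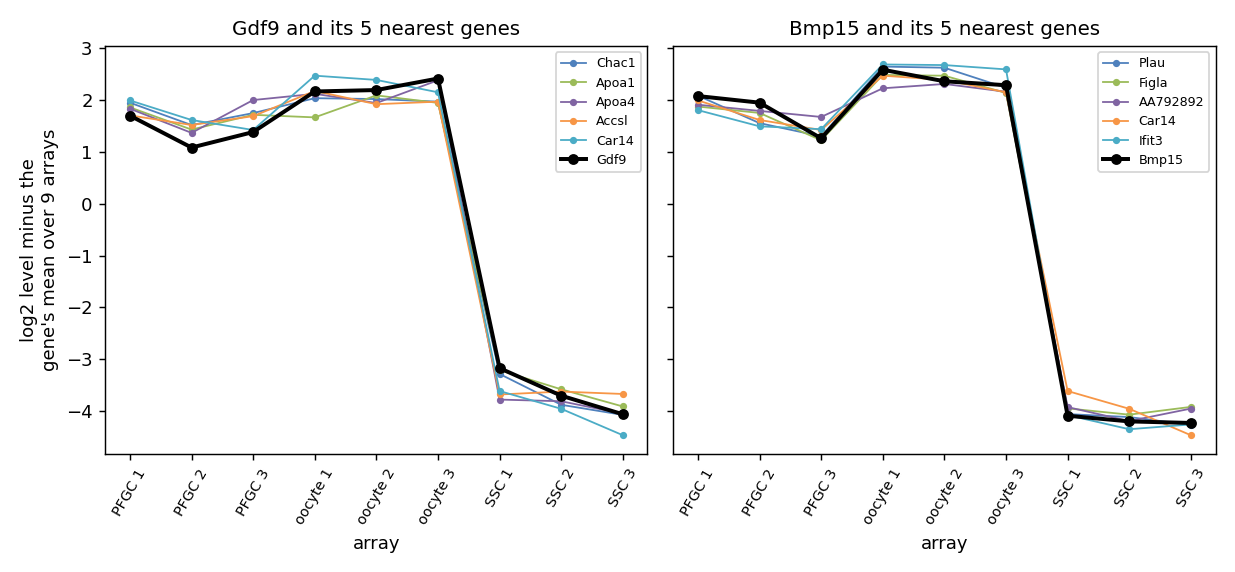
Centred log2 profiles over the 9 arrays of Gdf9 and Bmp15 (black) and of the 5 genes nearest to each (colours); the y axis is the log2 level minus the mean of that gene over 9 arrays, and lines join arrays only to guide the eye. Both members sit high in PFGC and oocytes and low in SSC, and Bmp15 dips on PFGC replicate 3 with Plau and Figla.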

How the data were processed

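Gene expression was measured on 9 arrays, 3 per group. Per the submitters' processing notes, GenomeStudio produced the values (version not stated). Per the file headers, the deposited table pairs a linear signal intensity with a detection p-value; the authors' processed intensity was an alternative. With limma 3.58.1 in R 4.3.3, normal-exponential background correction (control level inferred from detection p-values, offset 16), quantile normalization and log2 were applied. Probes with a detection p under 0.01 on at least 3 of 9 arrays were kept (19934). The fit (lmFit, eBayes, group only, all 9 arrays) was tested on simulated data. Listed genes are represented by the brightest kept probe; of 45281 probes, 34885 had 1 symbol, 18 several and 10378 were unnamed here, and 34807 matched the RefSeq table of GRCm38.p6. Named were both members, the members of the role and marker lists, up to 4 called genes per direction of the other lists, and 5 nearest genes. Members and lists were chosen with earlier results of these data known. Same-numbered replicates deviated together in all 9 pairs of groups and numbers (r 0.136 to 0.564). Replicates 1 and 2 of different groups also deviated together, at r from 0.0847 (SSC 2 and PFGC 1) to 0.246 (PFGC 2 and oocyte 1). The labels do not say that the numbers pair arrays. The main fit therefore used group only, and a fit with the replicate as a block was an alternative. Detected probes numbered 17631 to 18919 per array, and 3 arrays per group limit the precision. Alternatives changed background, normalization, filter, spread estimate and arrays.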

Additional observations from a re-analysis of the deposited data

How the results depend on the processing

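All calls of Gdf9 and Bmp15 over SSC held in each alternative that could be run (21 for Gdf9, 20 for Bmp15): log2 fold changes were 3.73 to 5.26 for Gdf9 and 3.82 to 6.22 for Bmp15 in PFGC, and 4.57 to 6.13 and 4.43 to 6.75 in oocytes. Bmp15 could not be tested among probes detected on all 9 arrays, and slide as a block was not run because the files used name no slides. Bmp15 in PFGC against oocytes (-0.65, limma adjusted p 0.0689) was called without background correction (-0.61, 0.0384), with an offset of 50 (-0.63, 0.0426), without normalization (-0.94, 0.0373), in the authors' processed table (-0.61, 0.0383), with a trended robust prior (-0.65, 0.0448), with array weights (-0.54, 0.0281) and with the replicate block (-0.65, 0.0265), and leaving out 1 array gave -0.81 to -0.40. Of the other comparisons whose values are printed, the block changed the call of Nobox in PFGC against oocytes and no other. The Gdf9 difference lost its call without the filter on dim probes (-0.87, adjusted p 0.0778), and leaving out 1 array gave -1.02 to -0.72. Bmp15 relative to Gdf9, oocytes minus SSC, turned to -0.14 without background correction and in the authors' processed table. PFGC minus SSC fell as low as 0.09 among other processing settings. PFGC minus oocytes was -0.03 to 0.47 with 1 array left out (-0.026 without PFGC replicate 2). Among probes detected on all 9 arrays, the listed genes called were 17 higher and 7 lower in PFGC and 20 higher and 7 lower in oocytes than in SSC, and 1 higher in PFGC than in oocytes, since fewer genes were tested. Array weights gave 7 higher in PFGC than in oocytes, and leaving out 1 array gave 0 to 10 lower. The cause of the other changes was not tested. Signals near background limit what can be said of SSC.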
